A study of Mus musculus with 9 samples.

Results

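Hepatic stellate cells lie between hepatocytes and the sinusoids, store vitamin A as retinyl esters and, with other fibroblasts, make much of the matrix of the liver. Fibrillar collagens of types I and III form the tension-bearing fibres, whereas type IV collagen forms the network of basement membranes and is also made by endothelial cells. When stellate cells are activated in injured liver, they are known to lose retinoid and to raise fibrillar collagen. The levels of 10 named genes of these cells and fibres were examined among the 32285 genes of a mouse liver RNA-seq table: Col1a1 and Col1a2 (the 2 chains of type I collagen), Col3a1 (the chain of type III collagen), Col4a1 and Col4a2 (the main chains of type IV collagen), Dcn (decorin, a small proteoglycan that binds collagen fibrils), Lrat (the enzyme that esterifies retinol for storage), Reln (reelin, a secreted glycoprotein made by stellate cells in the liver), Des (desmin, an intermediate filament of stellate and muscle cells) and Rgs5 (a regulator of G protein signalling in pericytes). The genes were chosen by name. All of them were found in the table, and all passed the filter of a mean of at least 10 normalized counts.

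Livers came from Tet-OFF mice, in which tamoxifen activates a transgenic Cre so that the tetracycline-controlled activator tTA switches on a Venus reporter at Rosa26. Each of the 3 groups had 3 libraries. Control mice received tamoxifen. Dox mice received tamoxifen and doxycycline, and Tc mice tamoxifen and tetracycline, each drug at 2 mg/mL in sucrose-containing drinking water for 7 days from 4 weeks of age. The comparisons ask how far each drug perturbs transcripts of the liver besides its action on the transgene. The Cre transgene PB CAG-CreERT2 is driven by a broadly active promoter, and the other alleles were LSL-tTA and tetO-Venus-ires-mCherry. Since both drugs also silence the reporter, drug exposure and the state of the reporter cannot be told apart in these groups. The mice are described as male.

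The deposited values are normalized counts, that is read counts divided by a size factor for each library. Recovered reads on genes ranged from 7426136 to 12183041 per library. The libraries numbered 3 resembled mixes of the other libraries of their group. Where libraries 1 and 2 differed more than 2-fold, the level in library 3 fell inside their range for 501 of 586 control genes, 4139 of 4264 Dox genes and 962 of 1022 Tc genes, and the fitted weights of libraries 1 and 2 were 61.6% and 37.7%, 67.4% and 32.3%, and 58.3% and 39.6%. Of the 10 genes described here, taken whatever the size of the gap, library 3 lay inside that range for 7 in controls, 10 with Dox and 7 with Tc. The study describes the samples of a group as independent, and the labels do not say whether libraries were mixed. The 3 libraries of a group may therefore not stand for 3 separate livers, and p-values from fits that include libraries 3 may be too small. This also holds where library 1 or 2 of a group was left out, since library 3 then stands beside a library it resembles. The limma model of all 3 groups and DESeq2 were also run without the libraries numbered 3, and the other fits were not. Messenger RNA came from whole liver, so that fewer cells of a type and less RNA per cell cannot be told apart.

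The collagen genes lie at several places in the genome (mm10, equal to GRCm38, with gene ends from GENCODE vM21). Col1a1 is at chr11:94936224-94953042 and Col1a2 at chr6:4504814-4541544, both on the plus strand, and Col3a1 is at chr1:45311538-45349706, also on the plus strand. Col4a1 (chr8:11198423-11312826, minus strand) and Col4a2 (chr8:11312805-11449287, plus strand) run away from each other, and their first exons share 22 bases. Col4a1 and Col4a2 moved together in these data, so the shared start is shown here from RefSeq (GRCm38.p6), on the plus strand at chr8:11312801-11312830, with the 22 bases that belong to both 5′ exons in capitals.
Col4a1 and Col4a2: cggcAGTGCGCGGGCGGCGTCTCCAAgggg
Reads from these 22 bases overlap both genes if strand was not used in counting, and the setting is not given in the sources used here. For the fibrillar collagens, which also moved together but start on separate chromosomes, the 250 bases before the RefSeq start of Col3a1 (chr1:45311288-45311537, plus strand) and 30 bases across that of Col1a2 (chr6:4505606-4505635, plus strand) are shown. Capitals mark TATAAA in Col3a1 and the reverse complement of CCAAT, whose first letter is the RefSeq start site, in Col1a2.
Col3a1: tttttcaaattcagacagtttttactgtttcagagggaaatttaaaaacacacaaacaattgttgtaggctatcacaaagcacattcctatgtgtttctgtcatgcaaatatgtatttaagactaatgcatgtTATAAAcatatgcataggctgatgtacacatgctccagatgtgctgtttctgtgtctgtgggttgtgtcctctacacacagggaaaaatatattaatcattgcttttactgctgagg
Col1a2: cctagccctcccATTGGtggagacgttttt

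Windows of 300 bases around the RefSeq start (250 before, 50 after) were matched for 8 of the 10 genes, Col1a2, Col3a1, Col4a1, Col4a2, Lrat, Rgs5, Reln and Des. Searched on both strands, TATAAA was found in 13.6% of 32851 windows of all genes, CCAAT in 37.4% and GGGCGG in 35.7%. Among the 8 windows, TATAAA was in that of Col3a1, 117 bases before the start. CCAAT was in those of Col1a2, Col4a1, Col4a2, Lrat and Rgs5. GGGCGG was absent from Col3a1 and Rgs5 and occurred 6 times in Reln. The G and C content ran from 37.7% in Col3a1 to 80.7% in Reln, with 61% in Col1a2, so the windows of Col3a1 and Col1a2 differ in base composition and hold none of these motifs in common. These are matches of letters, and nothing about the use of the windows was measured.

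In control liver, the genes differed widely in level per kilobase of transcript. Dcn was highest at 627 ± 48.9 normalized counts per kb (SD, n = 3 libraries, here and below), followed by Col4a1 at 213 ± 10.1. Col4a2 (142 ± 5.76) and Col3a1 (139 ± 23.8) did not differ beyond their spread. Col1a2 (94.3 ± 7.07) and Reln (94.0, from 88.7 to 97.0) were also alike, as were Rgs5 (77.1 ± 5.46) and Col1a1 (72.0 ± 3.78). Lrat (24.4 ± 5.57) and Des (15.8 ± 2.74) were lowest, and their ranges, from 18.2 to 28.9 and from 12.9 to 18.4, overlapped narrowly. Control livers were thus similar for most of these genes, and the plot of levels by library shows the narrow spread of controls beside the wide spread of Dox.

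**Figure D1:**
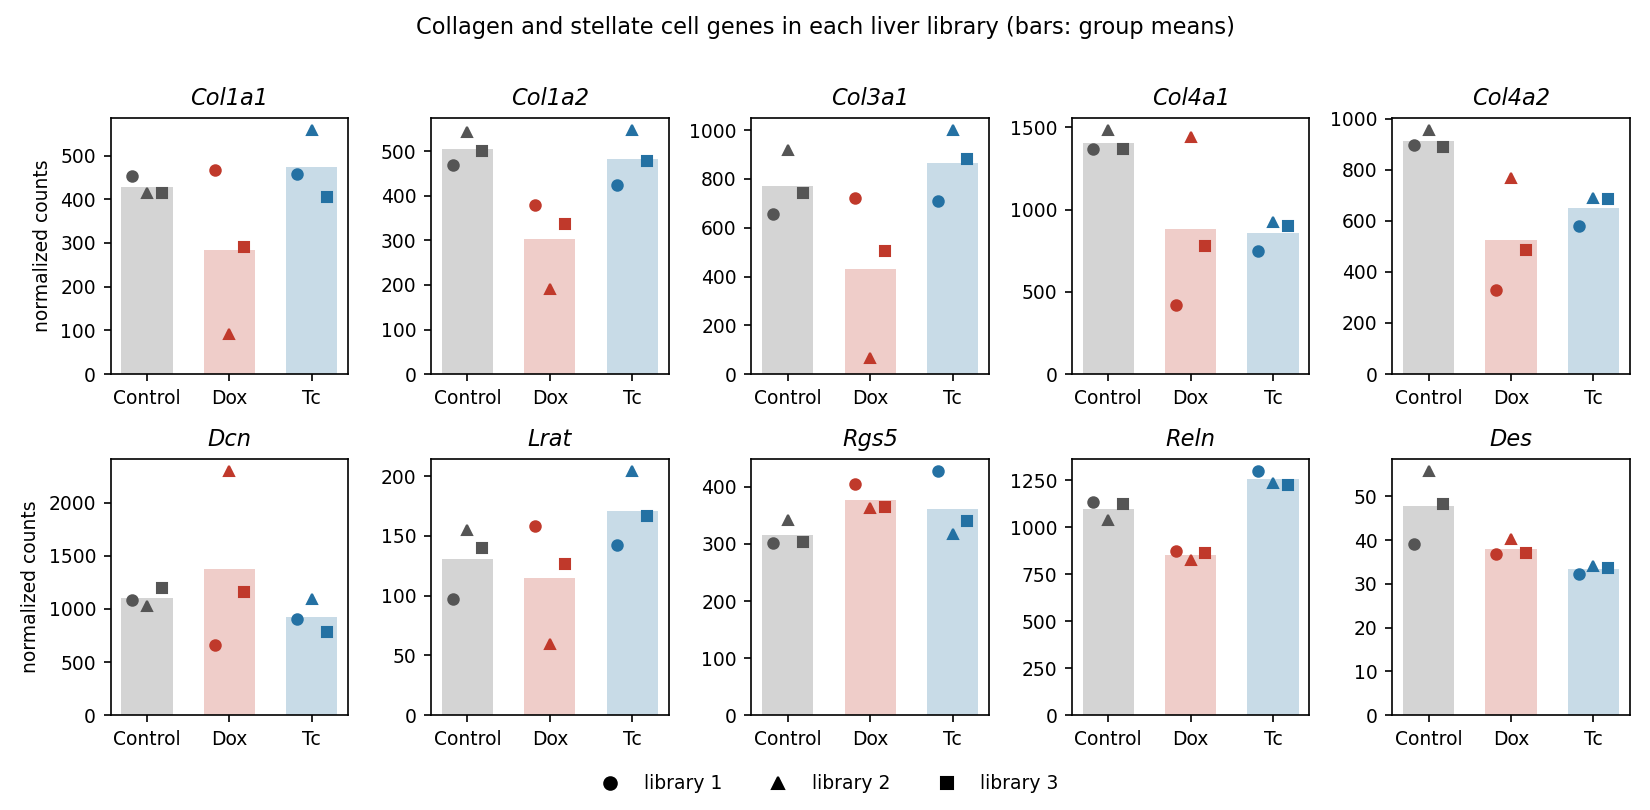
Normalized counts (y axis, from 0) of each gene in each library, with bars for group means and a separate symbol for libraries 1, 2 and 3. Dox library 2 was low for Col1a1, Col1a2, Col3a1 and Lrat and high for Dcn, while Dox library 1 was low for Col4a1 and Col4a2.

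Of the fibrillar collagens, Col1a1 and Col3a1 were low in Dox library 2 and within or near the control range in Dox library 1. Col3a1 was 658, 918 and 742 normalized counts in control libraries 1, 2 and 3, 720.2, 65.6 and 504 with Dox, and 708, 1001 and 883 with Tc. Dox library 2 was 10.98-fold below Dox library 1, which lay within the control range. Col1a1 was 453, 414 and 414 in controls, 468, 92.0 and 290.3 with Dox, and 457, 558 and 406 with Tc, with Dox library 2 lower than library 1 by 5.08-fold. Col1a2 was 469, 544 and 499.7 in controls, 379, 191 and 338 with Dox, and 424, 548 and 478 with Tc. Col1a2 was thus the fibrillar gene for which all 3 Dox libraries lay below all controls and all Tc libraries. With Tc, each of the 3 genes overlapped the controls.

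Against control, the Dox difference was -1.41 on the log2 scale for Col3a1 (SE 0.75, limma, adjusted p = 0.246), -0.87 for Col1a1 (SE 0.49, adjusted p = 0.269) and -0.79 for Col1a2 (SE 0.24, adjusted p = 0.0762). None passed the threshold of 0.05. The 95% intervals reached from -3.11 to 0.30, from -1.99 to 0.24 and from -1.35 to -0.24, wide enough to hold both no change and more than 2-fold lower levels for the first pair. Without Dox library 1, Col1a1 passed (-1.38, limma, adjusted p = 0.0408) and Col3a1 stood at -2.06 (adjusted p = 0.0592). That fit keeps Dox library 2 and Dox library 3, whose fitted weights were 67.4% of library 1 and 32.3% of library 2. Without Dox library 2, Col1a1 was at -0.21 (limma, adjusted p = 0.504) and Col3a1 at -0.35 (adjusted p = 0.274). Col1a2 passed without either of them, at -0.98 (limma, adjusted p = 0.0234) and -0.49 (adjusted p = 0.0382), both under 2-fold. The Tc differences were 0.16 for Col3a1, 0.14 for Col1a1 and -0.07 for Col1a2, with limma adjusted p from 0.951 to 0.962.

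The type IV collagen genes showed the opposite order of the Dox livers. Col4a1 was 1369.7, 1485 and 1368 normalized counts in controls, 420.1, 1442 and 776 with Dox, and 749, 927 and 898 with Tc. Here Dox library 2 lay at the control level, and Dox library 1 was lower than it by 3.43-fold. Col4a2 was 896, 955 and 887 in controls, 329, 766 and 484 with Dox, and 581, 688 and 686 with Tc. All 3 Dox libraries were below all controls for Col4a2, and all 3 Tc libraries were below all controls for both genes. For Col4a1 and Col4a2 the Tc livers were closer to each other than the Dox livers were, as shown in the plot relative to the control mean.

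**Figure D2:**
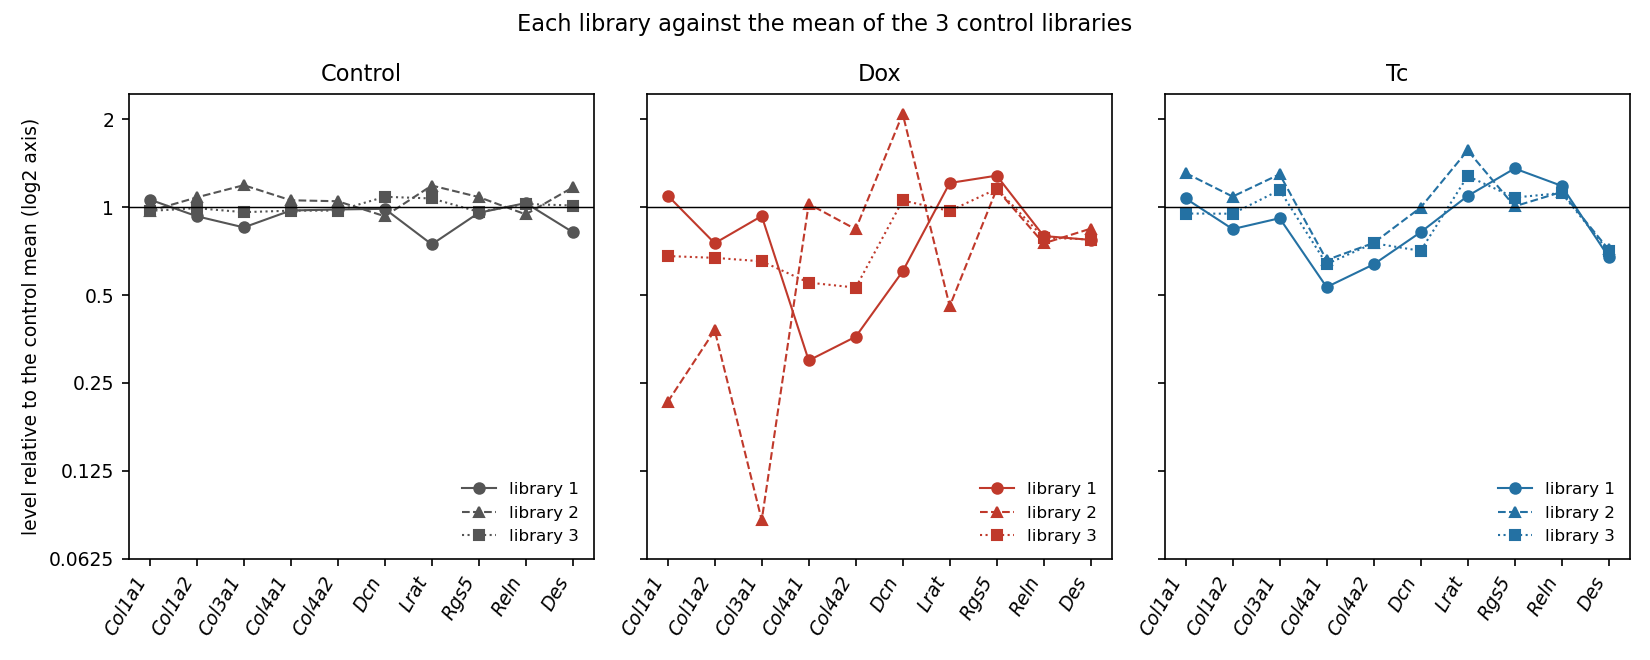
Level of each gene in each library divided by the mean of the 3 control libraries, on a log2 axis, with lines that only join the genes of 1 library. Dox libraries 1 and 2 cross between the fibrillar and the type IV collagens, and Dox library 3 lies between them for all 10 genes, while Tc libraries 1, 2 and 3 follow each other.

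Against control, the Dox difference on the log2 scale was -0.85 for Col4a1 (SE 0.37, limma, adjusted p = 0.167) and -0.88 for Col4a2 (SE 0.26, adjusted p = 0.0717), and the Tc difference was -0.72 (adjusted p = 0.511) and -0.49 (adjusted p = 0.529). When Dox library 2 was left out, both genes passed the test for Dox, at -1.30 (limma, adjusted p = 0.00754) for Col4a1 and -1.19 (adjusted p = 0.00376) for Col4a2. That fit keeps Dox libraries 1 and 3, and the fitted weight of library 1 in library 3 was 67.4%, so these p-values may be too small. Without Dox library 1 neither passed, at -0.41 (limma, adjusted p = 0.229) and -0.58 (adjusted p = 0.0624). In a limma fit of Tc and control alone, in which the wide spread of the Dox livers played no part, the adjusted p was 0.0116 for Col4a1 and 0.0288 for Col4a2, with both differences under 2-fold. Without libraries 3, neither gene passed in either comparison in the limma model of the 3 groups (adjusted p of 0.580 and above). The fit of Tc and control alone was not run without libraries 3. The summed level of 12 sinusoidal and vascular endothelial markers, cells that also make type IV collagen, ranged from 9673 to 10233 normalized counts in controls, from 5112 to 6869.6 with Dox and from 7755 to 8958 with Tc. None of the 12 was at 0 in any library. In the Dox group it was highest in library 2, as Col4a1 was, and its part in the lower Col4a1 and Col4a2 was not tested.

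The balance of the matrix genes differed between the Dox livers more than their total. The summed level of the 5 collagen genes was 3846 to 4316 normalized counts in controls, 2316 to 2557 with Dox and 2919 to 3722 with Tc, with no overlap between the groups. Within that sum, the 3 fibrillar genes ranged from 349 to 1567 with Dox, against 1580.4 to 1876 in controls and 1589 to 2107 with Tc. The type IV pair ranged from 749 to 2209 with Dox, against 2255 to 2440.0 in controls and 1330.0 to 1615 with Tc. Per kb, the ratio of Col3a1 to Col4a1 was 0.571 to 0.735 in controls, 0.0540 to 2.04 with Dox and 1.12 to 1.28 with Tc. The ratio therefore did not overlap between Tc and control, whereas the Dox libraries spread on both sides of each. Col4a1 to Col4a2 was 1.49 to 1.51 in controls, 1.26 to 1.31 with Tc and 1.25 to 1.84 with Dox, so this pair kept its proportion closely in controls. Col1a1 to Col1a2 was 0.686 to 0.871 in controls, 0.435 to 1.11 with Dox and 0.765 to 0.973 with Tc.

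In the Dox livers, Dcn stood in the order of the type IV genes. It was 1087, 1025 and 1195 normalized counts in controls, 664, 2298 and 1161 with Dox, and 904, 1098 and 781 with Tc. Dox library 2 held the highest Dcn level and the lowest Col3a1 level of all 9 libraries. The mean differences on the log2 scale were 0.14 for Dox (SE 0.38, limma, adjusted p = 0.833) and -0.26 for Tc (adjusted p = 0.852), and the Dox value was -0.32 when Dox library 2 was left out. Across the 9 libraries, which share 3 groups and near mixes, the log2 level of Col3a1 had a Pearson r of 0.97 with Col1a1, 0.95 with Col1a2, 0.90 with Lrat and -0.83 with Dcn, and Col4a1 had an r of 0.96 with Col4a2. The gap between Dox libraries 1 and 2 and the differences between groups both enter these values, which were not computed within groups.

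Of the stellate cell genes, Lrat varied with the fibrillar collagens in the Dox livers. Lrat was 97.4, 155 and 139.9 normalized counts in controls, 158, 59.8 and 127 with Dox, and 143, 204 and 167 with Tc. The Dox range included the control range, and Dox library 2 was lower than Dox library 1 by 2.64-fold. The log2 difference from control was -0.27 with Dox (SE 0.35, limma, adjusted p = 0.635) and 0.40 with Tc (SE 0.35, adjusted p = 0.736). Rgs5 varied little between livers. It was 302, 341 and 304 in controls, 404, 363 and 364 with Dox, and 428, 317 and 340.3 with Tc. All Dox libraries lay above all controls, by 0.26 on the log2 scale (SE 0.14, limma, adjusted p = 0.258). The Tc libraries overlapped both groups.

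Reln had even levels within groups. It was 1135, 1038 and 1126 normalized counts in controls, 875, 826 and 865 with Dox, and 1299.7, 1238 and 1228 with Tc. The 3 groups did not overlap, with Dox lowest and Tc highest. Dox was lower than control by a log2 difference of -0.36 (SE 0.10, 95% interval from -0.60 to -0.13, limma, adjusted p = 0.0637), and Tc stood at 0.19 (95% interval from -0.04 to 0.43, adjusted p = 0.526). Dox against Tc was -0.55 (95% interval from -0.79 to -0.32, adjusted p = 0.0752). None passed in limma with all 9 libraries. With single libraries left out, Dox against Tc passed without Dox library 1 (-0.57, limma, adjusted p = 0.0214) or 2 (-0.53, adjusted p = 0.0352), and Dox against control without Dox library 2 (-0.34, adjusted p = 0.0467). With the same total per library, Dox against control was -0.19 (limma, adjusted p = 0.298) and Dox against Tc -0.38 (adjusted p = 0.142). The limma adjusted p was 0.104 and 0.134 with library numbers as a replicate block, and 0.147 and 0.286 with only the groups compared. DESeq2 on the recovered reads gave adjusted p = 0.00468 for Dox against control and 7.76e-06 for Dox against Tc with all 9 libraries, and 0.776 and 0.777 without libraries 3. A change of this size is under 2-fold in every fit.

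Des was the lowest of the genes, with at least 33 reads in each library. It was 39.2, 55.7 and 48.3 normalized counts in controls, 36.9, 40.3 and 37.0 with Dox, and 32.2, 34.2 and 33.7 with Tc. All Tc libraries were below all controls and all Dox libraries, with a log2 difference from control of -0.49 (SE 0.19, limma, adjusted p = 0.381), and Dox overlapped the controls at -0.31 (adjusted p = 0.306). Desmin is also a muscle filament, and 5 skeletal muscle markers (Ckm, Acta1, Myh4, Tnnt3 and Mylpf) summed to 113 to 137 normalized counts in controls and to 5.86 to 8.42 with Tc. With Dox, the sum was 161, 0 and 101 in libraries 1, 2 and 3. In the Tc libraries Ckm and Tnnt3 were at 0. The part of muscle RNA in the lower Des of Tc was not tested.

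Counted over the set, no gene was called with Dox, Tc or between the drugs, where a call needs an adjusted p under 0.05 and more than 2-fold. With limma on all 9 libraries this was 0 of 10 for Dox against control, where 5% of 12100 genes tested were called, 0 of 10 for Tc against control (0.165% of all genes) and 0 of 10 for Dox against Tc (0.215%). Unadjusted p was under 0.05 for 4, 1 and 2 of the genes, where it was for 29.1%, 11.7% and 21.7% of all genes. Without libraries 3, limma called 0 of 10 in each comparison, with 0% of all genes called, and an unadjusted p under 0.05 was found for 0, 0 and 1 of them, against 8.60%, 1.98% and 3.75% of all genes. DESeq2 with all 9 libraries also called 0 of 10 in each comparison, where it called 8.71%, 1.28% and 4.53% of all genes, and without libraries 3 it called 0 of 10 against 0.875%, 0.0291% and 0.266%. edgeR called 0 in each, with 3, 1 and 2 at an unadjusted p under 0.05, against 30.4%, 12.3% and 23.6% of all genes. Leaving out the fold limit, DESeq2 with all 9 libraries passed 3 of 10 for Dox against control (Col1a2 with adjusted p = 0.0400, Col4a2 with 0.0440, and Reln), where 15.6% of all genes passed, 0 for Tc (2.17%) and 1 for Dox against Tc (Reln, 7.34%). Without libraries 3 none passed, against 0.875%, 0.0291% and 0.266% of all genes.

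**Figure D3:**
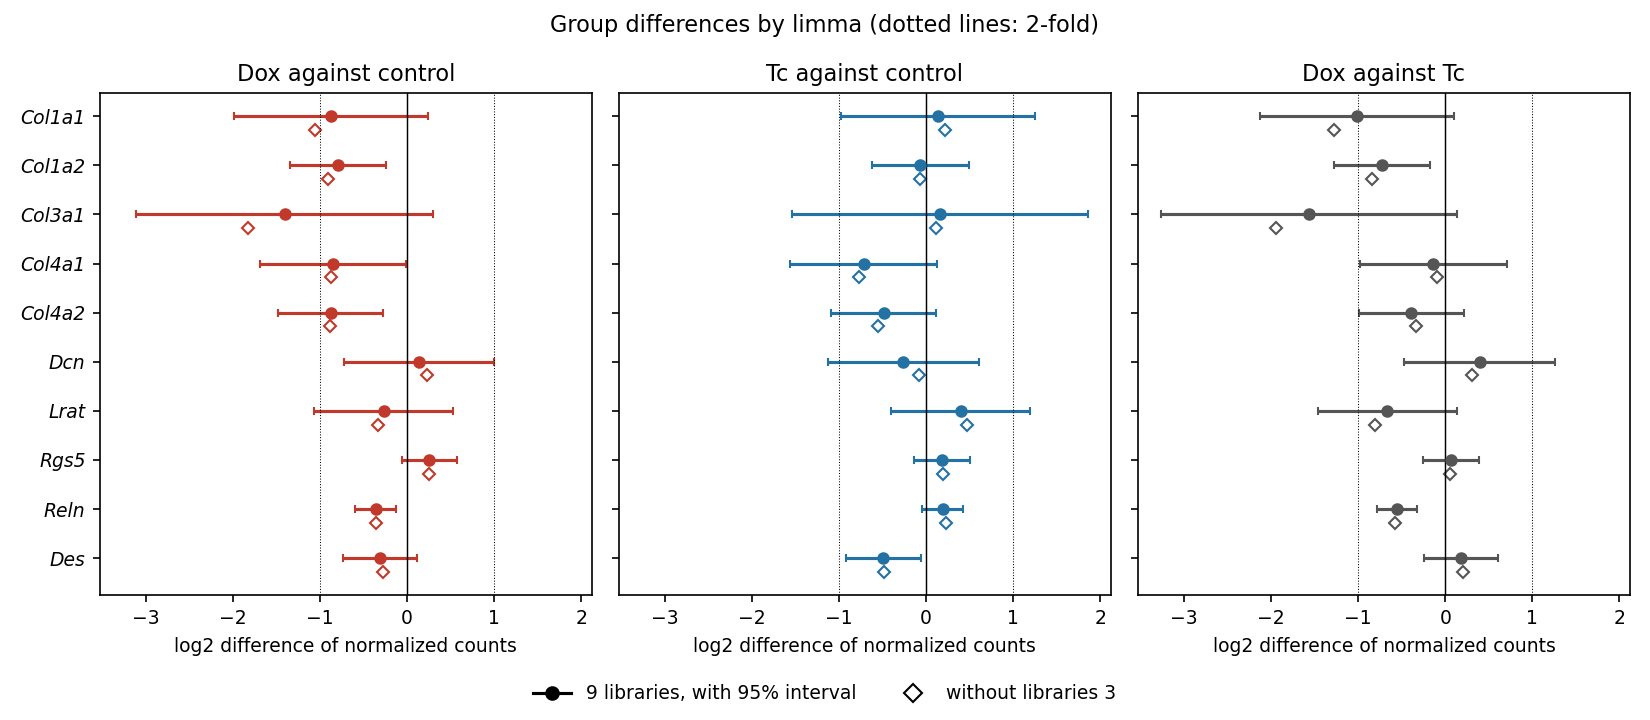
Log2 difference of normalized counts for each gene in the 3 comparisons, with filled points and 95% intervals from limma on all 9 libraries and open points without libraries 3. The intervals of the 5 collagen genes, Dcn and Lrat are wider than those of Reln, Rgs5 and Des.

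The median log2 difference of the 10 genes was -0.58 with Dox, against 0.00 over all genes tested, and 0.04 with Tc, against 0.00. Both comparisons share the control libraries. Groups that did not overlap were found for 3 genes lower with Dox (Col1a2, Col4a2 and Reln), against 17.1% of all genes, and for 1 higher (Rgs5), against 16.1%. With Tc, 3 were lower than all controls (Col4a1, Col4a2 and Des), against 14.9% of all genes, and 1 was higher (Reln), against 15.8%. Between the drugs, 2 were lower with Dox (Col1a2 and Reln), against 12.4%, and 1 was higher (Des), against 12.2%. The spread between libraries of the same group was more marked. Between Dox libraries 1 and 2, 6 of the 10 genes (Col1a1, Col3a1, Col4a1, Col4a2, Dcn and Lrat) differed by more than 2-fold, where 35.2% of all genes did, and none did between control libraries 1 and 2 (4.84% of all genes) or Tc libraries 1 and 2 (8.45%).

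Dox and Tc are tetracyclines that differ in the position of a hydroxyl group, and they were compared at the same concentration and duration over the 10 genes. The log2 difference of Dox from Tc was -1.57 for Col3a1 (95% interval from -3.27 to 0.14), -1.01 for Col1a1 (from -2.13 to 0.10) and -0.73 for Col1a2 (from -1.28 to -0.17), with limma adjusted p of 0.256, 0.259 and 0.166. Without Dox library 1, Col1a1 passed at -1.52 (limma, adjusted p = 0.0358) and Col1a2 at -0.92 (adjusted p = 0.0331), and Col3a1 stood at -2.22 (adjusted p = 0.0512). Without Dox library 2, Col1a1 was at -0.35 (limma, adjusted p = 0.370), Col1a2 at -0.42 (adjusted p = 0.135) and Col3a1 at -0.50 (adjusted p = 0.216). For Lrat it was -0.67 (from -1.46 to 0.13). For Col4a2 it was -0.39 (from -0.99 to 0.21), for Dcn 0.40 (from -0.47 to 1.26), for Des 0.18 (from -0.24 to 0.61) and for Rgs5 0.07 (from -0.25 to 0.39). For Col4a1 it was -0.14 (from -0.97 to 0.70), with a sign that turned under other scalings (0.04 with the same total per library and 0.04 with DESeq2). The intervals allow differences over 2-fold in the fibrillar genes, Lrat and Dcn, and not in Rgs5, Reln, Des or the type IV genes.

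Genes that were not chosen for this set but followed its profiles were taken from 9379 genes with a mean of at least 50, by Pearson r over the 9 libraries. Nearest to the mean profile of Col1a1, Col1a2 and Col3a1 were Cutal (r = 0.997), Gm15318 (0.996), Prdx4 (0.995), C4bp (0.995) and Psmb9 (0.992). Prdx4 is an endoplasmic reticulum peroxidase and C4bp a complement regulator secreted by hepatocytes. C4bp fell from 5230.2 normalized counts in Dox library 1 to 1127 in library 2, against 5568 to 6290.2 in controls. Nearest to Col4a1 and Col4a2 were C1qc (r = 0.978), Ccn2 (0.973), C1qtnf1 (0.972), C1qb (0.972) and C1qa (0.971). The C1q chains are made by Kupffer cells, and Ccn2 is a matrix-associated growth factor modulator. C1qc was 217 in Dox library 1 and 829 in Dox library 2, against 748 to 1094 in controls. The summed level of 9 Kupffer cell markers was 2235, 8064 and 3969.6 in the Dox libraries, 8115 to 15022 in controls and 3909.9 to 7589.8 with Tc, all 9 were above 0 in every library, and the part of these cells in the type IV values was not tested.

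Other matrix genes were examined by function, with calls from limma on all 9 libraries unless another tool is named, where 5% of all genes tested were called for Dox against control, 0.165% for Tc and 0.215% between the drugs. Of 15 tested other collagens, 2 fell with Dox and none rose, with a median log2 difference of -0.47 against 0.00 over all genes. Col15a1, a collagen of the basement membrane zone, was 151, 287 and 229 normalized counts in controls, 56.9, 57.5 and 58.1 with Dox, and 179, 390 and 275 with Tc. The 3 Dox libraries lay close together and far below both other groups, with a log2 difference of -1.88 from control (SE 0.31, limma, adjusted p = 0.0139) and -2.20 from Tc (adjusted p = 0.0498). Col16a1, a fibril-associated collagen, fell with Dox (log2 difference -1.30, adjusted p = 0.0189). Col4a5, another type IV chain, was 59.3 to 66.7 in controls, 32.6 to 35.2 with Dox and 75.0 to 84.0 with Tc, and was called for Dox against Tc (-1.20, adjusted p = 0.0487). With Tc, none of the 15 was called, at a median of 0.07, and the most abundant of them, Col18a1 and Col14a1, stood at 0.01 and -0.19. Between the drugs the median was -0.72, with 2 lower with Dox and none higher. The calls of Col15a1 and Col4a5 between the drugs, and that of Sod3 given below, were lost with the replicate block (limma, adjusted p from 0.0717 to 0.101), with edgeR (adjusted p = 0.0575), in the fit of only Dox and Tc (limma, adjusted p = 0.274) and without libraries 3 (limma, adjusted p = 0.755).

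Of 30 other proteoglycans and glycoproteins, limma called 3 lower with Dox, none higher and none with Tc. They were Fn1 (fibronectin, from 53247 to 66526 normalized counts in controls and from 22816 to 28224 with Dox, log2 difference -1.25, limma, adjusted p = 0.0365), Sparc (a collagen-binding glycoprotein, -1.20, adjusted p = 0.0150) and Prelp (a leucine-rich proteoglycan, -1.01, adjusted p = 0.00744). Fibronectin is also a plasma protein of hepatocytes, as is vitronectin, Vtn. With Tc, Fn1 stood at -0.23 and Vtn at 0.11 on the log2 scale. Of 27 collagen maturation enzymes and chaperones, 3 fell with Dox and 1 rose. P4ha2, a subunit of prolyl 4-hydroxylase, rose with Dox, with 15.9 to 22.9 normalized counts in controls and 54.5 to 66.3 with Dox (log2 difference 1.60, limma, adjusted p = 0.00755), and was 45.9 to 57.6 with Tc (1.40, adjusted p = 0.0501, not called). The most abundant of these genes, P4hb and Mia3, stood at 0.17 and -0.05 with Tc. Colgalt2, a collagen galactosyltransferase, fell with a log2 difference of -1.80, as did Pcolce2 (-1.63) and Pcolce (-1.37), enhancers of procollagen cleavage. Of 14 matrix proteases and their inhibitors, limma called none in any comparison. Their most abundant genes, Mmp19 and the membrane-bound Mmp14, had log2 differences of -1.65 (limma, adjusted p = 0.175) and -0.92 (adjusted p = 0.291) with Dox and of -0.14 and -1.27 with Tc (adjusted p = 0.967 and 0.418).

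**Figure D4:**
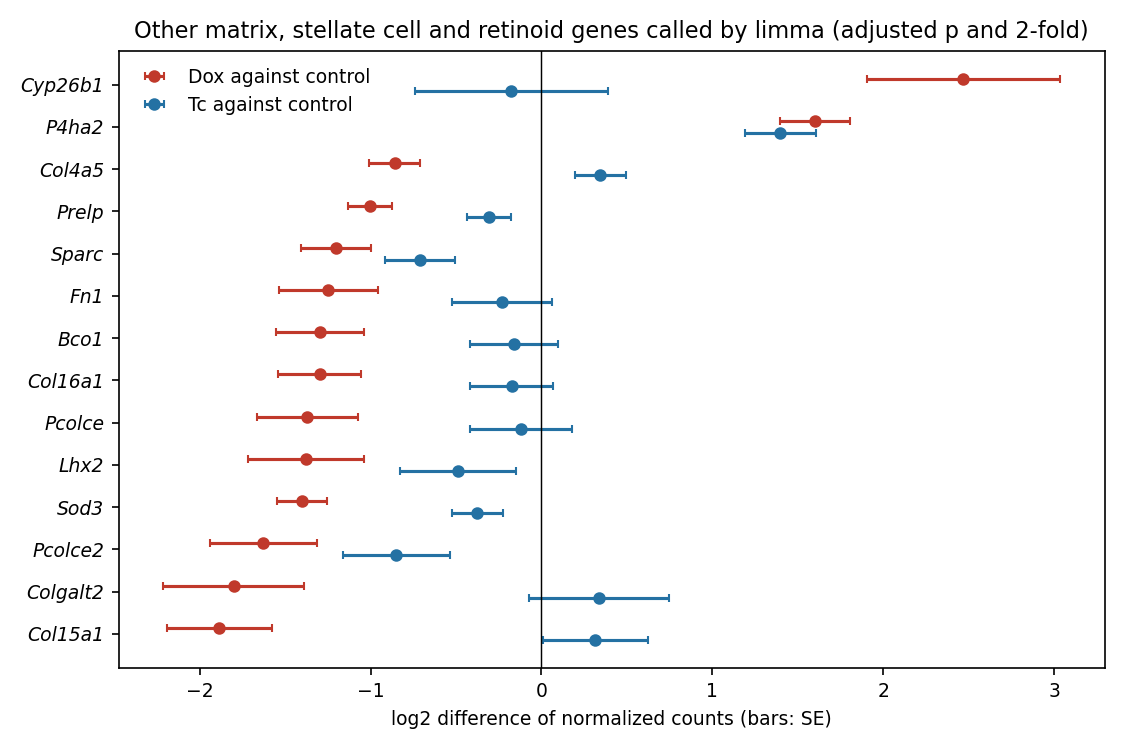
Log2 difference from control of Dox and of Tc, with SE, for the 14 genes of the other matrix, stellate cell and retinoid lists that limma called in some comparison (adjusted p under 0.05 and more than 2-fold). Cyp26b1 and P4ha2 lie above 0 with Dox and the other 12 below it, and P4ha2 is the gene with a Tc value near its Dox value.

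The stellate cell lists did not include the genes described above. Of 24 further stellate cell identity genes, 2 fell with Dox, none rose and none was called with Tc. Sod3, an extracellular superoxide dismutase, fell with Dox (log2 difference -1.40, limma, adjusted p = 0.00503) and was also lower than with Tc (-1.03, adjusted p = 0.0498), and Lhx2, a transcription factor of stellate cells, fell as well (-1.38, adjusted p = 0.0427). With Tc, the most abundant genes of the list, Cxcl12 and Ecm1, stood at 0.37 and -0.05. Of 16 retinoid genes, 1 fell and 1 rose with Dox, and none was called with Tc. Bco1, a carotene-cleaving enzyme, fell with a log2 difference of -1.30 (limma, adjusted p = 0.0232). Cyp26b1, which breaks down retinoic acid, rose from 13.8, 40.7 and 25.4 in controls to 75.8, 258 and 138 with Dox (log2 difference 2.47, SE 0.56, limma, adjusted p = 0.0350), and was 35.2, 11.7 and 23.6 with Tc. With Tc, the plasma retinol carriers Ttr and Rbp4 stood at 0.28 and -0.08.

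Limma called no gene among 17 tested myofibroblast activation genes, 24 of the TGF-beta pathway or 15 PDGF and contractile receptors, in any comparison. The most abundant genes of each list are given with Dox. Vim, a filament of mesenchymal cells, had a log2 difference of -0.95 (limma, adjusted p = 0.0160) and Agtr1a, an angiotensin receptor, one of -0.81 (adjusted p = 0.0314), both past the adjusted threshold and under 2-fold. Cald1, an actin-binding protein, stood at -0.23 (adjusted p = 0.552) and the integrin Itgb1 at -0.25 (adjusted p = 0.256). The TGF-beta co-receptor Eng stood at -0.41 (adjusted p = 0.0633) and the receptor Tgfbr2 at 0.75 (adjusted p = 0.115). With Tc, these 6 genes had log2 differences from -0.74 (Vim) to 0.15 (Cald1), with limma adjusted p of 0.165 and above. Acta2, the actin of activated stellate cells and smooth muscle, was 20.3 to 35.4 normalized counts in controls, 6.90 to 18.5 with Dox and 13.5 to 26.1 with Tc. The median log2 difference with Dox was -0.33, -0.16 and -0.27 for these lists. Without libraries 3, limma called no gene of any list. Of the matrix, stellate cell and signalling lists, DESeq2 then called Sod3 for Dox against control (adjusted p = 0.0124) and Col15a1 for Dox against Tc (adjusted p = 0.0313). With all 9 libraries DESeq2 called more genes of these lists. For Dox against control it called 4 other collagens lower and 0 higher, 4 glycoproteins lower and 2 higher, 3 maturation genes lower and 2 higher, and 2 proteases or inhibitors lower and 1 higher. It also called 3 stellate cell genes lower and 0 higher, 1 retinoid gene lower and 3 higher, 1 myofibroblast gene each way, 1 TGF-beta gene higher and 1 gene of the PDGF list lower. For Tc against control, DESeq2 called 1 maturation gene and 1 TGF-beta gene, both higher. For Dox against Tc it called 3 other collagens, 2 glycoproteins, 3 maturation genes, 1 stellate cell gene and 1 retinoid gene lower, and 1 maturation gene, 1 protease or inhibitor, 1 myofibroblast gene and 3 retinoid genes higher.

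Markers of other cells in the tissue were summed for the same libraries. Pericyte and smooth muscle markers (10 genes, Higd1b at 0 in all 9 libraries) summed to 1346 to 1621 normalized counts in controls, 705 to 1470.0 with Dox and 1254 to 1770.4 with Tc, with Mylk (489 in Dox library 2, 1141 to 1389.8 in controls) most of the sum. Portal fibroblast markers summed to 201 to 366 in controls, 154 to 181 with Dox and 173 to 239 with Tc. They did not move as a set with Dox. Of 6 tested, 2 lay below all controls and 1 above, against 17.1% and 16.1% of all genes, and none was called. Eln was 70.9, 230.0 and 119.5 in controls and 22.1, 58.7 and 35.2 with Dox. Fbln2 was 31.8, 34.5 and 39.4 in controls and 48.4, 42.6 and 70.4 with Dox. Mesothelial markers summed to 34.3 to 52.9, 92.4 to 118 and 63.5 to 91.7, with Msln called higher with Dox (log2 difference 1.74, limma, adjusted p = 0.0230). Each of these cell types can express some of the collagens, and their part in the values above was not tested. The sum of 7 hepatocyte markers was 1212930 to 1686110 normalized counts in controls, 861890, 455906 and 681466 in Dox libraries 1, 2 and 3, and 832960 to 1340540 with Tc, with none at 0. It was lowest in Dox library 2, as Col1a1 and Col3a1 were. The 7 markers did not move as a set with Dox. In all 3 Dox libraries, 2 lay below all controls and 2 above, against 17.1% and 16.1% of all genes. Limma called 1 of the 7, lower with Dox, where 5% of all genes were called. Neutrophil markers (6 genes) summed to 36.0 to 252 in controls, 3.16 to 104.7 with Dox and 11.7 to 97.1 with Tc, and erythroid markers (4 genes) to 1175 to 4584, 646 to 2266 and 1071 to 1924. For Dox against control, limma called 3 of 12 tested endothelial and 2 of 9 tested Kupffer cell markers lower. It also called 1 of 3 tested neutrophil and 1 of 3 tested erythroid markers lower. Of 3 tested cholangiocyte markers, 1 was called higher. The share called over all genes was 5%. The part of these cells in the values of the 10 genes was not tested. The defining stellate genes Lrat, Reln and Des were above 0 in every library, and the sum of Lrat, Reln, Des and Rgs5 was 1573 to 1618 in controls, 1289 to 1474 with Dox and 1769 to 1902 with Tc.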

How the data were processed

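RNA-seq of mouse liver was analysed in the groups Control, Dox and Tc with 3 libraries each, grouped by the treatment in the sample labels. Libraries were made with a directional kit and sequenced single-end. The authors trimmed reads with cutadapt, aligned them to mm10 with STAR 2.7.11ac, counted them per gene with HTSeq 2.0.5 and scaled the counts with DESeq2 1.42.0. The unit of the deposited values is thus a scaled count signal, in which read counts of a library share 1 size factor. Of 32285 identifiers, 32158 had a symbol, and transcript lengths are those of the longest coding transcript in GENCODE vM21.

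From the deposited values, log2(normalized count + 1) was tested by limma (version 3.58.1, R 4.3.3, trended prior), in 1 model of all 9 libraries, with Benjamini-Hochberg adjustment over 12100 genes, those whose mean reached 10 normalized counts. A call needed an adjusted p under 0.05 and more than 2-fold. Fold changes are on the log2(value + 1) scale, which understates changes of low genes. Whole reads were recovered for every value (tolerance 0.01 reads) and passed to DESeq2 (1.42.0) and to edgeR (4.0.16) as alternatives, and each tool was tested on simulated data. The simulated libraries were independent and had the same spread setting for all genes. That test therefore does not cover libraries that resemble mixes or the wide spread of the Dox group. Other alternatives covered the pseudocount, the filter, the scaling, the groups in the fit, libraries left out and a replicate block. The deviations from the group means correlated between Dox and Tc libraries of the same label number (r = 0.287, 0.321 and 0.182). They did not between controls and either drug (from -0.081 to 0.055). The label numbers were used as pairs in the replicate block alternatives only. The main limma fit, DESeq2 and edgeR were unpaired. Libraries held at least 7426136 reads. Counting error is largest for Des, with 33 to 63 reads per library.

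The genes and gene lists were chosen with earlier results of these data known. All 10 genes are named in each comparison. From the matrix, stellate cell, retinoid and signalling lists, the called genes are named, up to 4 by size, or otherwise the 2 most abundant. Called genes of the cell marker lists were counted, and Msln was named among them. Acta2, Mylk, Higd1b, Eln and Fbln2 were named after their values were seen. A gene of the lists is not reported here.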

Additional observations from a re-analysis of the deposited data

Results flagged for a closer look

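Reln was flagged because its levels with the 2 drugs lay on opposite sides of the control mean, although neither difference from control passed in limma with all 9 libraries (Dox adjusted p = 0.0637, Tc adjusted p = 0.526). All 3 Dox libraries (825.9 to 875 normalized counts) lay below the control mean of 1099.6 and all 3 Tc libraries (1228 to 1299.7) above it, and Dox differed from Tc by -0.553 on the log2 scale. The difference between the drugs was tested directly with limma and did not pass with all 9 libraries (adjusted p = 0.0752), but it passed in limma without Dox library 1 (adjusted p = 0.0214) or Dox library 2 (adjusted p = 0.0352), and Dox against control passed without Dox library 2 (adjusted p = 0.0467). The difference between the drugs passed with DESeq2 on all 9 libraries (adjusted p = 7.76e-06) and not without libraries 3 (adjusted p = 0.777). In limma it did not pass with the same total per library (-0.378, adjusted p = 0.142). It also did not pass in limma with the replicate block of all 9 libraries (adjusted p = 0.134) or with only Dox and Tc (adjusted p = 0.286).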

How the results depend on the processing

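For Dox against control, 0 to 2 of the 10 genes were called when single libraries were left out, and 3 passed with DESeq2 and no fold limit, a setting chosen after seeing the data. For Dox against Tc the values were 0 to 1 and 1. With the replicate block, in the model of all 9 libraries or of Dox and Tc alone, 0 of the 10 genes were called in each comparison. For Dox against Tc, Col4a1 turned to 0.0397 with the same total per library, 0.0353 with DESeq2, 0.0300 with edgeR and 0.157 with DESeq2 without libraries 3, and the cause was not tested. Leaving out single libraries gave Dox against control values from -0.32 to 0.57 for Dcn and from -0.55 to 0.14 for Lrat, a Tc against control value from -0.16 to 0.0243 for Col1a2, and Dox against Tc values from -0.58 to 0.31 for Col4a1, from -0.0644 to 0.83 for Dcn and from -0.0175 to 0.20 for Rgs5. Of 607 alternative values for the 30 differences of single genes, 593 kept their direction and were not called, 10 reversed and 4 became calls. A call here needs both the adjusted p and more than 2-fold. Values that passed the adjusted p alone, such as those of Col1a2 and Reln, are among the 593. Des has a mean under 50 and gave no value with that filter. Over all genes, limma called 605, 20 and 26 in the 3 comparisons, 0 in each without libraries 3, and 557, 2 and 2 with the block (0 between the drugs in the block fit of Dox and Tc alone). DESeq2 called 1214, 193 and 632, edgeR 668, 21 and 0, and fits of only the groups compared 333, 276 and 0. If libraries 3 add little beyond libraries 1 and 2, an effect of Dox and a difference between its animals cannot be told apart for the genes that differed over 2-fold within the Dox group.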
